A study of Mus musculus with 2 samples.

Results

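The 10 genes described here are the Notch receptors Notch1, Notch2, Notch3 and Notch4, the ligands Dll1 and Jag1, the effector Rbpj and the target genes Dtx1, Hes1 and Nrarp. They were taken from the gene tables by their Ensembl identifiers without version, matched to these symbols in the GENCODE M21 mouse annotation. All 10 were found, among 42462 genes matched in that way. Polyadenylated RNA of mouse leukemia stem cells had been sequenced with paired ends in 2 libraries, numbered as biological replicates 1 and 2. Both libraries belong to 1 group, so the data hold no contrast between conditions and no test was made. The cells were taken after infection with the Friend virus, which causes erythroleukemia in mice, and were described by the surface markers Kit+, Sca1+, CD34+ and CD133+. The mice were adults of 10 to 12 weeks, with males and females pooled. Their strain is not named, but per the labels it has to be Fv2 sensitive (Fv2s). The libraries have separate biosample records and 1 donor record in common, so the spread between them may be technical.

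Notch receptors are single-pass proteins that are cut when a ligand on a neighbouring cell binds them. An ADAM protease makes the first of the ligand-dependent cuts and gamma-secretase the next, and the freed intracellular part enters the nucleus, where it joins Rbpj and Maml proteins at target genes. In blood the pathway is known for T cell commitment, for marginal zone B cells, through Notch2, and for the emergence of stem cells in the embryo. Levels are in TPM, the share of a transcript among all transcripts after correction for length, and counts are the expected numbers of read pairs that the authors assigned to a gene or transcript.

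Replicate 1 held 23575315 expected counts and replicate 2 held 22541765, so a gene with 0 counts could still have up to 3 counts at this depth. The transcripts of the sort markers were scarce: Kit, Cd34, Ly6a (Sca1) and Prom1 (CD133) together came to 5.12 TPM in replicate 1 and 3.48 TPM in replicate 2, and Prom1 had 3 counts and 0 counts. The 6 erythroid markers were all detected and came to 4071 TPM in replicate 1 and 1887 TPM in replicate 2. The markers of macrophages (6 of 8 at 1 TPM or more in both libraries) came to 1023 and 1375 TPM, those of B cells (5 of 6) to 698 and 292 TPM, those of megakaryocytes (4 of 6) to 374 and 367 TPM, those of endothelial cells (4 of 8) to 229 and 204 TPM, those of T cells (5 of 8) to 110 and 100 TPM and those of stromal cells (4 of 6) to 55.3 and 28.0 TPM, each with replicate 1 given first. Dcn, a stromal marker, had 0 counts in both libraries, Cd3d and Pf4 had 0 in replicate 2 and Emcn had 0 in replicate 1. Which of these cells held the Notch transcripts was not tested, and in bulk RNA fewer cells of a type and less RNA per cell cannot be told apart.

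Dtx1, Hes1, Nrarp and Notch1 were the most abundant of the 10 genes, and Jag1, Notch3 and Rbpj the least. At a level of 1 TPM or more in both libraries, 7 of the 10 were detected, against 41.6 percent of all protein-coding genes. Notch3, Rbpj and Jag1 were the exceptions. In replicate 1 alone 9 genes passed this level and in replicate 2 alone 7 did. For several of these genes the level rested on short annotated transcripts that carry no full coding sequence, and this is shown first because it bears on the order of the levels.

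A gene's TPM is the sum over its transcripts, so a short transcript with few counts can weigh more than a long one with many. The sequences below are stretches of the short transcripts that weighed most in 4 of the genes, at the point where each enters an exon of the main coding transcript. Small letters are the last bases before that exon, up to 60 of them, and capitals are the first 60 bases inside it. In the 4 sequences whose small letters adjoin their capitals in the genome, the small letters end in ag, the letters that end nearly all introns. The coordinates are on mm10, and the sequences are those of the GENCODE M21 transcripts. Notch1-204 is shown at chr2:26470347-26470466 and Notch1-202 at chr2:26469658-26469749, both on the minus strand. Notch4-206 is at chr17:34585845-34585964 on the plus strand, Dll1-202 at chr17:15374900-15375019 on the minus strand and Hes1-204 at chr16:30066483-30066931 on the plus strand. Hes1-204 alone is shown across a splice junction, so its small letters and its capitals do not adjoin in the genome.
Notch1-204: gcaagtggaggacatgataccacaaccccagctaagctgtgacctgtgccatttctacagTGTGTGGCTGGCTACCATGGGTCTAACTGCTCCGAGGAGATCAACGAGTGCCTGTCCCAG
Notch1-202: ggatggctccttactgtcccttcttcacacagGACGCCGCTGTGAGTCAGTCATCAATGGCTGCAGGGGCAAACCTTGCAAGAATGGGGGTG
Notch4-206: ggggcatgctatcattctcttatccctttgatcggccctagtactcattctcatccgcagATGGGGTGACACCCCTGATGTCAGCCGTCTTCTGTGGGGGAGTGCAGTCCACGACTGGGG
Dll1-202: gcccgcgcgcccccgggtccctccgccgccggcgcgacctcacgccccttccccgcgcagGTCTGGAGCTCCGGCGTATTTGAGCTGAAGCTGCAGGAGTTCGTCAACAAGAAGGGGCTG
Hes1-204: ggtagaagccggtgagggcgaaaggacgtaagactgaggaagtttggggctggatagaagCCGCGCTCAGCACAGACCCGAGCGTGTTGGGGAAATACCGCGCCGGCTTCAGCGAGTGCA

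Most bases of these transcripts lie inside coding exons, where a read fits the short and the long transcript alike. Notch1-204 has 367 of its 459 bases in exons 22 and 23 of the coding transcript Notch1-201, which has 34 exons, and 92 bases outside its exons. Notch1-202 has 374 of 406 bases in exons 24 and 25. Notch4-206 has 402 of 642 bases in exons 27 and 28 of 30, and Dll1-202 has 656 of 797 bases in exons 2 to 5 of 11. Hes1-204 has 448 of 653 bases in exon 4, the last exon of Hes1-201. How many of the counts fell on bases that only the short transcript holds was not tested, since the tables give no counts per base.

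**Figure D1:**
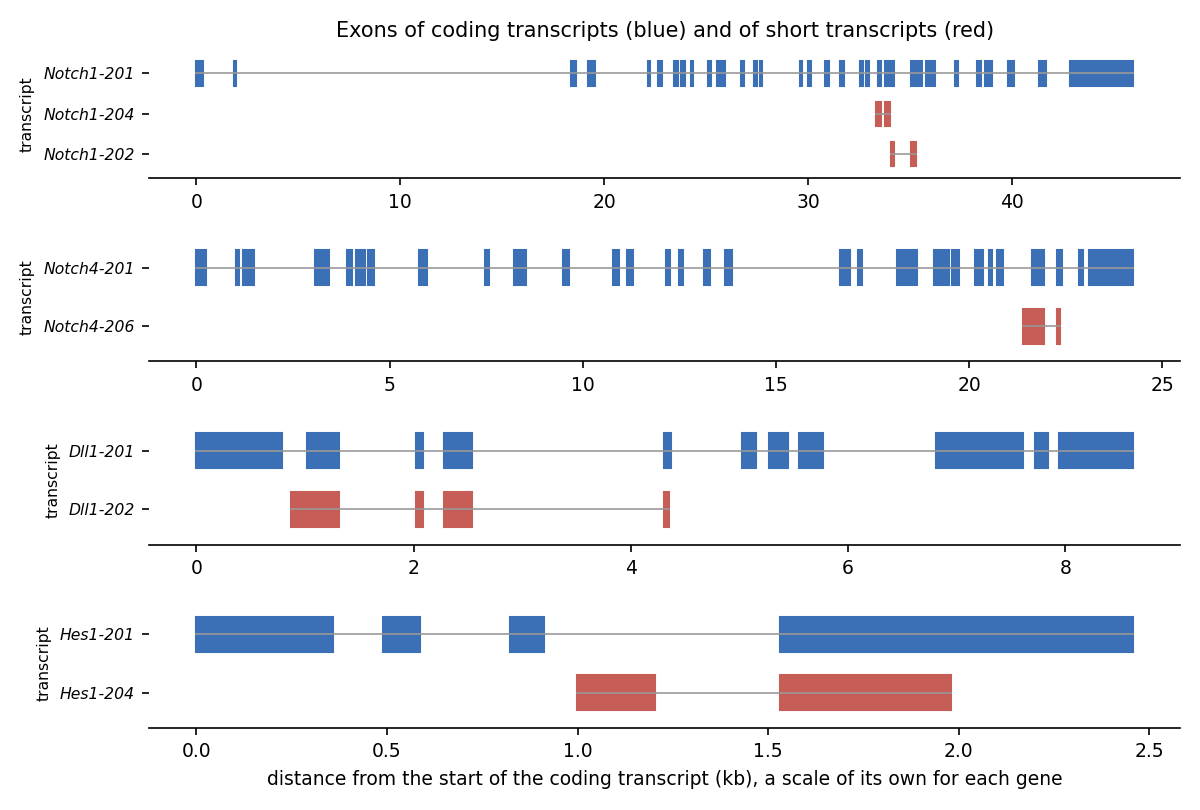
Exons of the coding transcript (blue) and of the leading short transcripts (red) of Notch1, Notch4, Dll1 and Hes1, by distance in kb from the start of the coding transcript, with the same direction of transcription for all genes and a scale for each gene. The short transcripts of Notch1 cover 2 exons each inside a coding transcript of 34 exons, and Hes1-204 starts inside the last intron.

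Notch1, the receptor best known for T cell commitment, lies at chr2:26457903-26516663 on the minus strand. Its level was 29.8 TPM in replicate 1 and 26.0 TPM in replicate 2, a mean of 27.9 ± 2.73 TPM (SD, n = 2), higher than 84.8 percent of all protein-coding genes. The libraries were close, but most of this level did not come from the coding transcript. Notch1-201 held 36.6 percent of this TPM in replicate 1 and 29.2 percent in replicate 2, although it held 94.6 and 92.4 percent of the gene's counts. Notch1-204, annotated as a processed transcript, held 37.3 percent of the TPM in replicate 1 with 71.7 counts and 70.8 percent in replicate 2 with 116 counts. Notch1-202 held 26.1 percent in replicate 1 and was at 0 in replicate 2, so the libraries differed in which short transcript was given the level. Counting protein-coding transcripts only, Notch1 was at 10.9 TPM in replicate 1 and 7.58 TPM in replicate 2, a mean of 9.24 ± 2.35 TPM (SD, n = 2).

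Notch2, the receptor required for marginal zone B cells in mice, lies at chr3:98013527-98150361 on the plus strand and has 1 annotated transcript. It had the most counts of the 4 receptors, 4762 in replicate 1 and 2022 in replicate 2. Its level was 23.2 TPM in replicate 1 and 9.83 TPM in replicate 2, a mean of 16.5 ± 9.48 TPM (SD, n = 2). Replicate 1 was the higher library, and the gap was wide for a gene with so many counts.

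Notch4, a receptor known from endothelial cells, lies at chr17:34564268-34588503 on the plus strand. Its level was 4.46 TPM in replicate 1 and 11.9 TPM in replicate 2, a mean of 8.17 ± 5.25 TPM (SD, n = 2), while its counts were 372 and 379. The libraries thus held almost equal counts and unlike levels. The retained-intron transcript Notch4-206 held 26.2 percent of the TPM in replicate 1 with 11.7 counts, and 77.8 percent in replicate 2 with 92.0 counts. The coding transcript Notch4-201 was close between the libraries, at 2.75 TPM in replicate 1 and 2.22 TPM in replicate 2, a mean of 2.49 ± 0.375 TPM (SD, n = 2). Of the endothelial markers beside it, Plvap and Eng were each at over 80 TPM in both libraries, Cdh5 was at 7.40 and 1.82 TPM and Tek at 0.03 and 0.01 TPM.

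Notch3, a receptor known from smooth muscle cells and pericytes, lies at chr17:32120820-32166852 on the minus strand and has 1 annotated transcript. Its level was 1.40 TPM in replicate 1 and 0.96 TPM in replicate 2, a mean of 1.18 ± 0.311 TPM (SD, n = 2), from 219 and 151 counts. It was the least abundant receptor in both libraries. An antisense gene that overlaps it, Gm17276, had 5 and 21 counts, and since counting by strand is not given in the sources used here, these reads cannot be told apart from those of Notch3.

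The 4 receptors together came to 58.9 TPM in replicate 1 and 48.6 TPM in replicate 2. Notch1 made up 50.6 percent of this sum in replicate 1 and 53.4 percent in replicate 2. Notch2 made up 39.4 and 20.2 percent, Notch4 7.57 and 24.4 percent and Notch3 2.38 and 1.97 percent. With protein-coding transcripts only, Notch2 came before Notch1 in both libraries: Notch2 made up 60.7 percent of the receptor sum in replicate 1 and 47.7 percent in replicate 2, and Notch1 28.5 and 36.8 percent. Which receptor was the most abundant therefore depended on whether the short transcripts were counted.

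Dll1, a Delta-like ligand that activates Notch2 in the spleen, lies at chr17:15367354-15376872 on the minus strand. Its level was 8.08 TPM in replicate 1 and 10.4 TPM in replicate 2, a mean of 9.25 ± 1.65 TPM (SD, n = 2). The retained-intron transcript Dll1-202 held 71.5 percent of the TPM in replicate 1 and 80.3 percent in replicate 2, with 75.8 and 109 counts. The coding transcripts of Dll1 came to 2.31 TPM in replicate 1 and 2.04 TPM in replicate 2, so a low coding level was common to both libraries.

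Jag1, a Jagged ligand known from bone marrow stroma and vessels, lies at chr2:137081456-137116644 on the minus strand. It was the least abundant of the 10 genes in mean TPM, with 29 counts in replicate 1 and 7 counts in replicate 2. Its level was 0.83 TPM in replicate 1 and 0.11 TPM in replicate 2, and its retained-intron transcript Jag1-202 held 89.5 and 55.3 percent of it. The coding transcript alone was at 0.09 TPM in replicate 1 and 0.05 TPM in replicate 2, from 9.46 and 5.39 counts. For the whole gene as deposited, 3 counts would give 0.0859 TPM in replicate 1 and 0.0475 TPM in replicate 2. That floor does not apply to the coding transcript alone, which is longer than Jag1-202.

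Rbpj, the DNA-binding protein through which all 4 receptors act on their targets, lies at chr5:53466152-53657362 on the plus strand. Its level was 3.20 TPM in replicate 1 and 0.42 TPM in replicate 2, a mean of 1.81 ± 1.97 TPM (SD, n = 2), from 340 and 45.1 counts. Replicate 1 was the higher library by a wide margin, and the SD exceeded the mean. All of its counts were given to coding transcripts, with Rbpj-201 at 75.4 percent of the TPM in replicate 1 and 71.6 percent in replicate 2. The processed pseudogene Rbpj-ps3, a near copy of its coding sequence, had 74.5 and 14.9 counts, so part of the reads could be split between them. Like Rbpj, this copy was higher in replicate 1.

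Dtx1, a ubiquitin ligase of the Deltex family and a Notch target in lymphocytes, lies at chr5:120680202-120711927 on the minus strand. Its level was 48.8 TPM in replicate 1 and 74.3 TPM in replicate 2, a mean of 61.6 ± 18.0 TPM (SD, n = 2), higher than 91.1 percent of all protein-coding genes. It was the most abundant of the 10 genes in both libraries. Its coding transcript Dtx1-201 held 81.8 percent of the TPM in replicate 1 and 99.2 percent in replicate 2. The retained-intron transcript Dtx1-204 accounted for most of the rest in replicate 1, with 372 counts, and had 0 counts in replicate 2.

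Hes1, a basic helix-loop-helix repressor and a widely used Notch target, lies at chr16:30064384-30067796 on the plus strand. Its level was 24.7 TPM in replicate 1 and 35.6 TPM in replicate 2, a mean of 30.1 ± 7.67 TPM (SD, n = 2). Replicate 2 was the higher library for the whole gene and the lower one for the coding transcript. Hes1-201 was at 19.4 TPM in replicate 1 and 14.6 TPM in replicate 2, a mean of 17.0 ± 3.39 TPM (SD, n = 2). Hes1-204, annotated as a processed transcript, held 17.2 percent of the TPM in replicate 1 with 43.7 counts and 58.9 percent in replicate 2 with 213 counts.

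Nrarp, a small ankyrin repeat protein that is induced by Notch and dampens it, lies at chr2:25180758-25183339 on the plus strand and has 1 annotated transcript. Its level was 33.5 TPM in replicate 1 and 24.0 TPM in replicate 2, a mean of 28.7 ± 6.74 TPM (SD, n = 2), from 1620 and 1161 counts. The 3 target genes thus had the highest means of the 10, though Hes1, Nrarp and Notch1 overlapped between their libraries, and Nrarp was the one of them with no other transcript to share its reads.

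**Figure D2:**
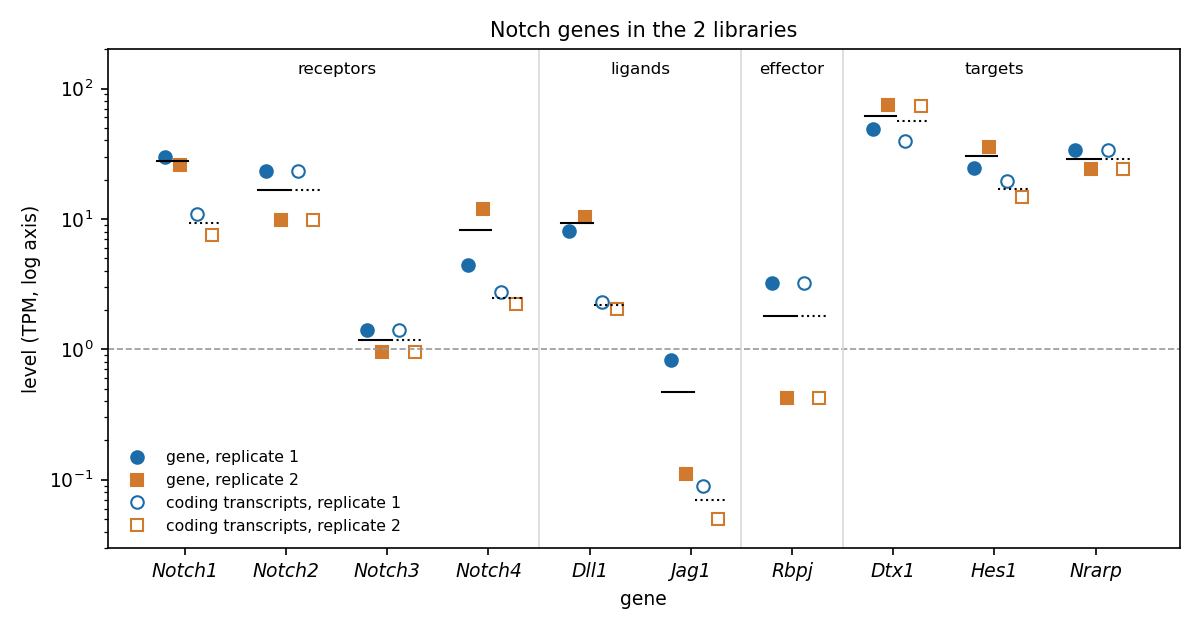
Level in TPM (log axis) of the 10 genes by role. Filled points are the whole gene and open points its protein-coding transcripts, circles are replicate 1 and squares replicate 2, solid and dotted bars are the means of the 2 libraries, and the dashed line is at 1 TPM. Open points fall well below filled ones for Notch1, Notch4, Dll1 and Jag1, and coincide with them for Notch2, Notch3, Rbpj and Nrarp.

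In order of mean TPM the genes ran Dtx1, Hes1, Nrarp, Notch1, Notch2, Dll1, Notch4, Rbpj, Notch3 and Jag1. Of the 9 pairs of neighbours in this order, 4 did not overlap between their libraries: Dtx1 and Hes1, Notch1 and Notch2, Notch4 and Rbpj, and Notch3 and Jag1. The other 5 pairs overlapped and were not told apart. With protein-coding transcripts only, Nrarp stood before Hes1 and Notch2 before Notch1, and again 4 pairs were separate and 5 overlapped. Dtx1 was first and Jag1 last on both scales.

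Of the 6 genes with more than 1 transcript and a mean of 1 TPM or more, 2 had a leading transcript that is not protein-coding in both libraries, Notch1 and Dll1. Over all 7404 protein-coding genes of that kind the share was 21.4 percent. Notch4 and Hes1 had such a lead in replicate 2 only, and Jag1, below 1 TPM, had one in both libraries. The coding transcripts of these 6 genes held a median of 70.0 percent of the TPM in replicate 1 and 35.1 percent in replicate 2, beside 92.7 and 93.9 percent over the 7404 genes. In counts the median was 92.8 percent in replicate 1 and 83.7 percent in replicate 2, beside 96.4 and 96.9 percent.

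**Figure D3:**
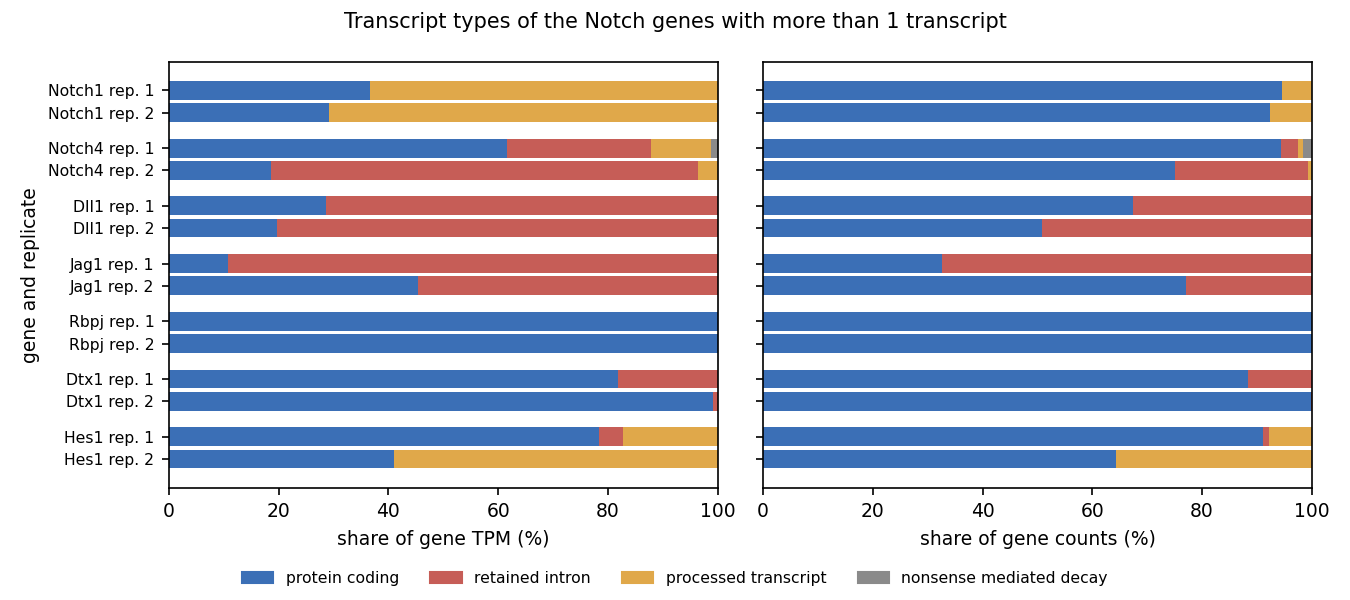
Share of each annotated transcript type in the gene's TPM (left) and in its expected counts (right), in percent, for the 7 genes with more than 1 annotated transcript, replicate 1 above replicate 2. The protein-coding part of Notch1 is 36.6 and 29.2 percent of the TPM but 94.6 and 92.4 percent of the counts, and Rbpj is protein-coding throughout.

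Between the libraries Rbpj and Dtx1 stood apart, in opposite directions, and the other 8 genes did not. The ratio is that of replicate 1 over replicate 2 after TMM scaling, which sets the bulk of the genes equal, and a gene was called apart where the whole exact 95% binomial interval of its ratio lay beyond 2-fold. The interval covers counting error only, and with 1 library on each side the ratio describes these libraries. All 10 genes had the 20 counts needed. Rbpj was higher in replicate 1, with a log2 ratio of 2.41 (interval 1.97 to 2.90), and was the 1 gene of the 10 called higher, beside 14.5 percent of all 11708 genes compared. Dtx1 was lower in replicate 1, with a log2 ratio of -1.21 (interval -1.27 to -1.15), and was the 1 gene called lower, beside 8.84 percent of all genes. The call for Dtx1 depended on the scaling. With DESeq2 size factors, another scaling, it was kept, at a log2 ratio of -1.24. With total counts the log2 ratio of Dtx1 was -0.78, and as a ratio of TPM it was -0.61, both within 2-fold and in the same direction. Of all calls 62.1 percent were higher in replicate 1 with TMM scaling, 88.0 percent with total counts and 85.8 percent as a ratio of TPM, and the median log2 ratio of all genes was 0.04, 0.47 and 0.44 on the 3 scales.

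Notch2 had a log2 ratio of 0.74 (interval 0.66 to 0.81), short of 2-fold, and passed it with total counts, at 1.17. Jag1 had a log2 ratio of 1.48, with a wide interval of 0.33 to 2.99 that its few counts allow. Hes1 was at -0.59 and Notch4 at -0.52, and both kept this sign with total counts, at -0.16 and -0.09. Dll1 was at -0.43 and at 0.01 with total counts, below the median of all genes on both scales (0.04 and 0.47). Notch1 at -0.01 and Nrarp at -0.02 were level between the libraries and lay at 0.42 each with total counts, close to the median of all genes on that scale. With TMM scaling their intervals, -0.11 to 0.08 for Notch1 and -0.13 to 0.09 for Nrarp, include the median of all genes. Notch3 was at 0.04. The median log2 ratio over the 10 genes was -0.01.

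**Figure D4:**
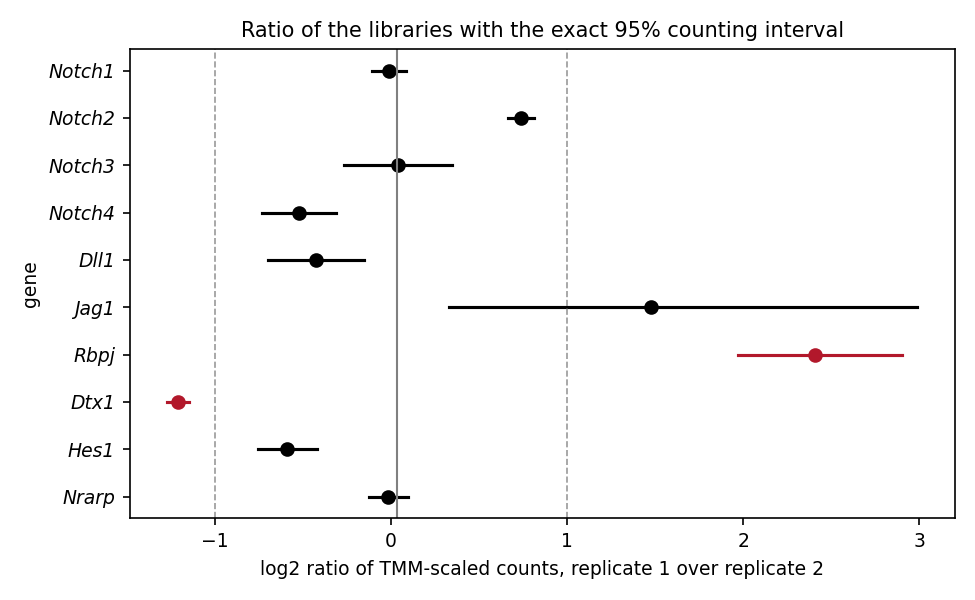
Log2 ratio of TMM-scaled counts, replicate 1 over replicate 2, with the exact 95% counting interval, for the 10 genes. Red marks the genes called apart, dashed lines mark 2-fold and the grey line is the median of all genes at 0.04. Rbpj lies right of the upper line and Dtx1 left of the lower one.

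Of the lineage markers, 3 of 6 erythroid, 2 of 6 B cell, 1 of 8 endothelial and 1 of 6 stromal genes were also called higher in replicate 1, and none of these 4 lists had a gene called lower. Of 8 macrophage genes 3 were higher and 1, C1qc, was lower. The sort marker Cd34 was higher and no T cell gene was called. Globin transcripts took 11.0 percent of TPM in replicate 1 and 22.2 percent in replicate 2. The part of these differences in the ratios of Rbpj and Dtx1 was not tested.

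The other genes of the pathway, 69 in 10 lists by role, were expressed broadly in the steps around the receptors and sparsely among the ligands. At 1 TPM or more in both libraries, 49 of the 69 were detected, beside 41.6 percent of all protein-coding genes. With protein-coding transcripts only, 44 of the 69 were. The 41.6 percent is for whole genes, and no share over all genes was made on this scale. Of the 61 with 20 counts or more, 6 were called higher in replicate 1, 5 lower and 50 not apart. Of all 11708 genes compared, 14.5 percent were called higher and 8.84 percent lower. The median log2 ratio of the 61 was -0.13, beside 0.04 over all genes.

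Of 6 further ligands, 1 reached 1 TPM in both libraries: Dll4, the ligand of Notch1 in the thymus, at 1.43 TPM in replicate 1 and 1.08 TPM in replicate 2. Dner, a ligand-like protein of neurons, had 0 counts in both. The ubiquitin ligases that drive uptake of bound ligand included Mib1 at 14.9 TPM in replicate 1 and 23.4 TPM in replicate 2, of which coding transcripts held 1.70 and 0.89 TPM. Mib2 was at 36.6 and 60.8 TPM, with 3.67 and 4.82 TPM in coding transcripts, and was called lower in replicate 1 (log2 ratio -1.27).

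All 6 genes that process and glycosylate the receptors were detected and none was called apart. Furin, which cuts the receptor on its way to the surface, was at 190 TPM in replicate 1 and 219 TPM in replicate 2. The Fringe glycosyltransferases change which ligand a receptor answers to: Lfng was at 81.9 and 55.4 TPM, Rfng at 86.8 and 39.6 TPM and Mfng at 31.4 and 19.5 TPM. Pofut1, which adds the fucose that Fringe extends, was at 12.5 and 9.03 TPM, and Poglut1, which adds glucose, at 4.58 and 1.63 TPM. All 3 Fringe genes were above Notch1's coding level in both libraries.

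Both ADAM proteases were detected, Adam10 at 51.7 TPM in replicate 1 and 74.9 TPM in replicate 2 and Adam17 at 15.5 and 13.7 TPM. Adam17 was called higher in replicate 1 in counts (log2 ratio 1.23). Of the 7 gamma-secretase genes, 5 were detected. Levels were 79.5 and 86.7 TPM for Psen2, which encodes a catalytic subunit, 102 and 47.5 TPM for Aph1a, 45.8 and 18.1 TPM for Psenen, and 8.57 and 3.46 TPM for Ncstn. In coding transcripts alone Psen2 was at 61.0 TPM in replicate 1 and 48.5 TPM in replicate 2.

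Among the coactivators 7 of 8 were detected, led by the acetyltransferase genes Kat2a at 109 TPM in replicate 1 and 90.5 TPM in replicate 2 and Ep300 at 51.7 and 46.8 TPM. Crebbp was at 16.8 and 7.43 TPM, Kat2b at 5.25 and 4.94 TPM and Maml1, which binds the Notch and Rbpj complex, at 15.7 and 8.50 TPM. Snw1, a splicing factor that also binds this complex, was at 7.43 and 1.61 TPM and was called higher in replicate 1 (log2 ratio 1.70), as Rbpj was.

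The corepressor list, drawn up for repression by Rbpj when Notch is off, held some of the most abundant genes of the pathway. Of its 10 genes 9 were detected. The exception, Rbpjl, is a relative of Rbpj and not a corepressor, and was at 0.24 TPM in replicate 1 and 0.08 TPM in replicate 2. Whether Rbpj binds the others directly was not tested. Spen was at 254 TPM in replicate 1 and 399 TPM in replicate 2, of which coding transcripts held 64.5 and 58.8 TPM. Ctbp1 was at 209 and 223 TPM, Ncor1 at 85.8 and 119 TPM, Ctbp2 at 41.0 and 52.1 TPM and Hdac1 at 67.4 and 23.3 TPM. L3mbtl3, a chromatin reader known to bind Rbpj, was at 1.78 and 8.05 TPM and was called lower in replicate 1 (log2 ratio -2.83). Spen and Ctbp1 each exceeded Rbpj itself by far in both libraries.

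Genes of receptor turnover and inhibition were detected in 10 of 11 cases. Dtx3, a relative of Dtx1, was at 174 TPM in replicate 1 and 385 TPM in replicate 2 and, like Dtx1, was called lower in replicate 1 (log2 ratio -1.65). Dtx2 was at 32.8 and 21.8 TPM and was not called (log2 ratio 0.07, interval -0.04 to 0.19), so the call was not common to all Deltex genes. Numb, which inhibits Notch at cell division, was at 30.8 and 18.0 TPM. Fbxw7, which marks the intracellular part of Notch for decay, was at 8.53 and 10.3 TPM, and Cdk8, a kinase that primes it, at 21.1 and 25.1 TPM, of which coding transcripts held 1.71 and 1.39 TPM. The ubiquitin ligase gene Nedd4 was at 31.2 and 2.91 TPM and was called higher in replicate 1 (log2 ratio 1.64). Ccnc, the cyclin partner of Cdk8, had 88 counts in replicate 1 and 0 in replicate 2 and was called higher in replicate 1.

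The other HES and HEY genes were sparse beside Hes1, with 2 of 8 detected. Hes6, which counteracts Hes1, was at 22.8 TPM in replicate 1 and 39.3 TPM in replicate 2, but its coding transcripts held 1.37 and 0.57 TPM. Hes5 was at 1.91 and 6.17 TPM and was called lower in replicate 1 (log2 ratio -2.08). Of 7 Notch targets known from blood cells 5 were detected. Myc was at 492 and 377 TPM, Tcf7 at 63.6 and 37.6 TPM, Gata3 at 17.8 and 24.7 TPM and Ccnd1 at 4.59 and 3.40 TPM. Cr2, a Notch2 target in marginal zone B cells, was at 48.3 and 3.04 TPM, of which coding transcripts held 1.77 and 1.26 TPM, and was called higher in replicate 1 (log2 ratio 2.01), as were the B cell markers Cd79a and Ms4a1.

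**Figure D5:**
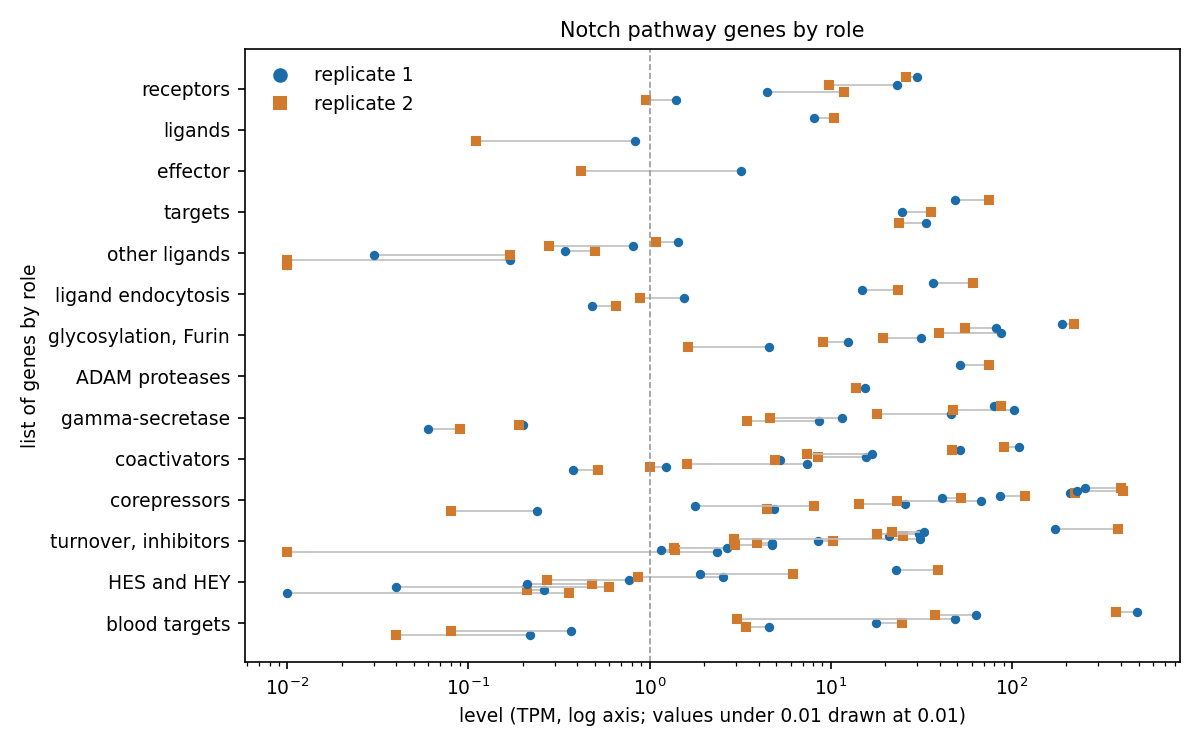
Level in TPM (log axis, values under 0.01 drawn at 0.01) of the 10 genes and 69 further genes of the pathway by role, circles for replicate 1 and squares for replicate 2, each gene's libraries joined by a line, and a dashed line at 1 TPM. Most further ligands and most HES and HEY genes lie left of the line, and the ADAM proteases, the glycosylation genes and 9 of 10 genes of the corepressor list right of it.

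The site that Rbpj binds has the core TGGGAA, and promoters were searched for these letters and for TTCCCA on the other strand, from 250 bases before to 50 bases after each start in the RefSeq annotation of GRCm38.p6. Promoters were at hand for 9 of the 10 genes, all but Hes1. The letters were in both annotated promoters of Rbpj and in none of those of the other 8 genes, while 25.6 percent of all 32851 promoters held them. The windows of Rbpj, chr5:53590096-53590395 and chr5:53590236-53590535, overlap. The only match in the later window lies in the part they share, so it is not a further site. These are matches of letters only, and the libraries measure no binding.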

How the data were processed

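RNA-seq tables of 2 libraries of 1 group were used. Per the file headers and the deposited readme, the authors made gene and transcript tables on mm10 with GENCODE M4; which aligner and quantifier were used, and whether strand was, is not given in the sources used here. Expected counts, as deposited, are estimated numbers of read pairs and need not be whole. TPM as deposited sums over all 69691 entries of a table. Deposited FPKM and posterior mean TPM, also by the authors, served as alternatives. Transcript shares are the percent column that the authors deposited. The deposited posterior SDs and interval bounds, which are in the unit of the signal or count beside them, were not used.

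Of 43346 Ensembl identifiers, 42462 matched GENCODE M21, which gave symbols, positions and transcript sequences. A gene was detected at 1 TPM. Expected counts of protein-coding genes with 20 or more counts were rounded for TMM scaling in edgeR 4.0.16 (R 4.3.3), with DESeq2 1.42.0 size factors as an alternative. Ratios had 0.5 added as prior count, and their 95% intervals are exact binomial (Clopper-Pearson) ones from scipy 1.17.1, checked on simulated counts. Intervals and the floor of 3 counts cover counting error only. The members and lists were chosen with earlier results of these data known. Named were all 10 members and, per role list, up to 6 genes at 1 TPM in both libraries by mean level, those with 0 counts in both and those called apart; likeness of patterns was not ranked, since 2 libraries give no pattern. Some genes that this rule names are not reported here, though the counts over lists include them. Marker genes were named after their values had been seen. The levels, counts and order from protein-coding transcripts only were added after seeing the data. Alternatives covered units, scaling, thresholds and each library alone.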

Additional observations from a re-analysis of the deposited data

How the results depend on the processing

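With 1 group and 2 libraries no test was possible, and depth limits Jag1 most. No paired analysis was possible because the labels give only 1 group. The called ratios, those of Rbpj and Dtx1, kept their sign under all alternatives. Of the ratios not called, those of Notch1, Nrarp and Dll1 changed sign with total counts. Levels, shares and counts have no sign to change. A minimum of 5 TPM left 32 of the 49 detected pathway genes. Taking each library alone kept between 5 (without replicate 1) and 8 (without replicate 2) of the 9 neighbour pairs in the order, and gave 4 (without replicate 1) and 2 (without replicate 2) genes led by a transcript that is not coding. The 1 gene higher in replicate 1 became 2 with total counts, 2 with a fold of 1.5 (Rbpj and Notch2 in both) and 3 as a ratio of TPM (Rbpj at 2.92, Jag1 at 2.84 and Notch2 at 1.24). The 1 gene lower became 0 with total counts, and as a ratio of TPM it was Notch4 (-1.41) in place of Dtx1. Rbpj stayed between 2.29 and 2.92 under all alternatives. The cause of these changes was not tested. Of the values for single genes, 109 were kept, 25 moved and 2 no longer passed the fold in use. Another 5 newly passed it (1 of them, Notch2, under the lower fold of 1.5 with its ratio unchanged). A level or share was kept if it lay within 1 SD of the mean of the 2 libraries. The value of 1 library alone always lies within it, so levels and shares without a library could not move. An uncalled ratio was kept inside its counting interval, and a called one if its call stayed. A ratio needs both libraries, so none was made without a library.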
